A study of Mus musculus with 73 samples.

Results

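The Igf2r and Airn domain is an imprinted stretch of mouse chromosome 17, and its allelic output was measured here at E6.5 in the epiblast, which forms the embryo proper, and in the extraembryonic ectoderm (ExE), a trophoblast tissue that contributes to the placenta. The 4 genes followed, Igf2r, Airn, Slc22a2 and Slc22a3, were taken by name from a table of 30546 RefSeq genes, and all 4 had a row. Igf2r (chr17:12682406-12769706 in mm10, minus strand) encodes the cation-independent mannose 6-phosphate receptor, which carries lysosomal enzymes to the lysosome and removes the growth factor IGF2 from the cell surface. Airn (chr17:12741311-12859884, plus strand) is a long noncoding RNA that runs antisense across the 5′ part of Igf2r. Slc22a2 (chr17:12583958-12628488, plus strand) and Slc22a3 (chr17:12419972-12507704, minus strand) encode organic cation transporters.

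As background, Igf2r is an imprinted gene used mainly from the maternal chromosome. The promoter of Airn lies in an intron of Igf2r, is methylated on the maternal chromosome in the egg and is active on the paternal one, and transcription of Airn silences Igf2r on the same chromosome. In placental tissue the silencing reaches the more distant Slc22a2 and Slc22a3.

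Each of the 72 libraries came from 1 tissue of 1 embryo, 35 from epiblast and 37 from ExE. The Bdf1xCast embryos, with a BDF1 mother and a CAST father, were made by injecting thawed CAST sperm into BDF1 oocytes. The CastxBdf1 embryos, with the parents exchanged, came from natural matings, so cross and mode of fertilisation cannot be told apart. Wild-type embryos numbered 7 in Bdf1xCast and 4 in CastxBdf1, each with both tissues. The knockouts, written with a delta sign in the labels, were all Bdf1xCast and were made by injecting Cas9 mRNA with several guide RNAs into each zygote, so that every embryo was edited separately and no group is a line or a clone. All Bdf1xCast blastocysts developed in CD-1 foster mothers, and the labels do not say whether wild-type zygotes received a control injection. Dnmt1, the maintenance DNA methyltransferase, was disrupted in 3 epiblast and 3 ExE libraries. G9a and Glp, the paired H3K9 methyltransferases encoded by Ehmt2 and Ehmt1, were disrupted together in 6 and 8 libraries. Rnf2, a catalytic subunit of Polycomb repressive complex 1, was disrupted in 6 and 5, and Eed, a core subunit of Polycomb repressive complex 2, in 9 and 10.

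The promoters of the 2 overlapping genes are shown because Dnmt1 acts on CpG dinucleotides, here in capitals. Each is the 250 bases before the RefSeq start, 5′ to 3′ on the gene's own strand in GRCm38.p6, the assembly of mm10, at chr17:12769707-12769956 for Igf2r and at chr17:12741061-12741310, inside Igf2r, for Airn.
Igf2r: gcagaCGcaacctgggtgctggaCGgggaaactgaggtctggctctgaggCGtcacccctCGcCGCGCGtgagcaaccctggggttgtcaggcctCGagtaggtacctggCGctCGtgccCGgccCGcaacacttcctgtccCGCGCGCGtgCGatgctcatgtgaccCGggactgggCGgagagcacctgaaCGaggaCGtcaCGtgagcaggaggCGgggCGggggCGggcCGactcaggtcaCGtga
Airn: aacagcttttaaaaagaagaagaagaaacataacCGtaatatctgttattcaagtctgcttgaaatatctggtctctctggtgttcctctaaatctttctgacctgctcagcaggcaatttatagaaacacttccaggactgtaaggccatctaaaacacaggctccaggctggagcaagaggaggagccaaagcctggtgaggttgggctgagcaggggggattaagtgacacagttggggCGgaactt
The motif CG, which reads the same on both strands, occurred 27 times in the Igf2r window, and 8.56% of 32851 RefSeq promoter windows of this length held as many or more. It occurred 2 times in the Airn window, and 29.0% of windows held as many or fewer, the median being 6. Slc22a2 had 6 and Slc22a3 had 5. Each window stops before the RefSeq start, and CG at or beyond the start was not counted. The counts therefore do not describe all of a promoter region. A count of CG in these letters gives no methylation level, and no methylation measurement was used here.

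The libraries held 1141414 to 17653087 reads over positions where BDF1 and CAST differ, and only such reads carry an allele. The Rnf2 libraries were the most deeply read group in both tissues, with medians of 8041174 in epiblast and 8195827 in ExE against 2477150 and 2911275 in wild-type Bdf1xCast. In marker lists the tissues separated: 8 epiblast markers summed to 2286 to 6903 CPM, that is, informative reads scaled to one common library total, in epiblast and 540 to 1421 in ExE. The 8 ExE markers summed to 353 to 1423 CPM in ExE and 40.4 to 280 in epiblast. Transcripts of the targeted genes were lower in most knockout libraries: in ExE the mean level of Eed was 7.94 CPM in the knockout against 201 in wild type, Ehmt1 14.8 against 29.3, Ehmt2 3.75 against 15.4, Dnmt1 29.2 against 47.5 and Rnf2 35.2 against 45.5. However, 6 libraries were not below the second-lowest wild-type library for any targeted gene abundant enough to judge (Dnmt1 ExE embryo 1, G9a-Glp epiblast embryos 2 and 7, Rnf2 ExE embryos 2, 5 and 6). A Cas9 edit can leave the transcript level as it was, so those labels were kept, and calls that rest on these libraries were also computed without them.

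Reads over the domain were few. Igf2r had 481 reads in all, at least 1 in 64 of 72 libraries and at least 10 in 19. Airn had 662 reads, at least 1 in 55 libraries and at least 10 in 19. Most libraries of a group reached 10 Igf2r reads only in Rnf2 epiblast, Rnf2 ExE and Eed ExE, and 10 Airn reads only in the ExE of the last 2 knockouts. Slc22a3 had 138 reads in 26 libraries, 3 of them with 10 or more, and reached that depth in most libraries of 0 groups. Slc22a2 had 1 read, a paternal one in Rnf2 epiblast embryo 5, so nothing can be said of it. Allelic shares of knockout and wild type, and of the 2 crosses, were therefore compared only between groups with at least 3 libraries of at least 3 reads. This left Igf2r and Airn in ExE. Levels are on the CPM scale within each gene, and no level is compared between genes, which differ in length and in the number of informative positions.

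The library preparation did not mark strand, so reads in the 28396 bases shared by Igf2r and Airn (chr17:12741311-12769706) cannot be assigned to a strand. Pooling the groups, at most 75 reads could have been counted for both genes, 15.6% of the Igf2r and 11.3% of the Airn reads. Airn also overlaps Mas1 (chr17:12838069-12859884), and up to 83 of the 85 Mas1 reads could be shared with it. In Eed knockout ExE up to 37 of 186 Airn reads (19.9%) could be Mas1 reads, in Rnf2 knockout ExE up to 14 of 220 (6.36%) and in wild-type Bdf1xCast ExE up to 2 of 48 (4.17%).

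**Figure D1:**
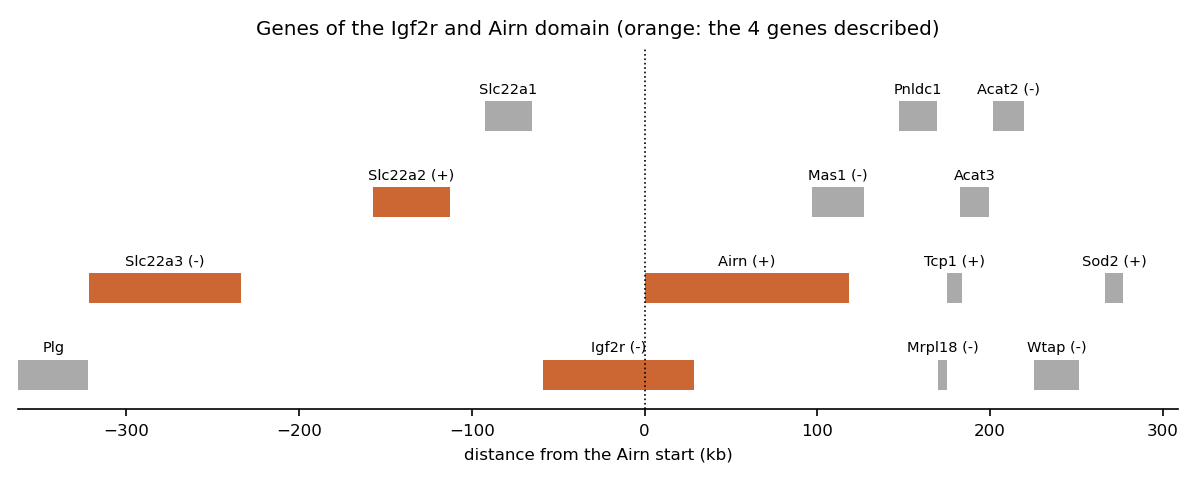
Map of the domain and its neighbours drawn to scale, with the x axis in kilobases from the start of Airn; bars are genes and the 4 genes followed are coloured. Airn starts inside Igf2r and runs across its start and beyond on the opposite strand, and Slc22a2 and Slc22a3 lie beyond the far end of Igf2r.

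The first comparison was between the reciprocal wild-type crosses, which separates the parent of origin from the strain. In wild-type ExE, Igf2r reads came mainly from the mother and Airn reads almost entirely from the father in both crosses. The maternal share is the percentage of a gene's allele-informative reads that came from the mother's strain.

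In Bdf1xCast ExE, the 7 libraries held 0 to 13 Igf2r reads, with a median of 2. Embryo 1 had 7 of 7 maternal reads, embryo 3 had 13 of 13, embryo 4 had 1 of 1 and embryo 7 had 2 of 2. Embryo 2 had only 3 of 7, and embryos 6 and 8 had no read. All 4 paternal Igf2r reads of this group thus came from embryo 2. In CastxBdf1 ExE the maternal reads were 4 of 4, 6 of 6, 4 of 4 and 7 of 7 in embryos 1 to 4. Pooled, 26 of 30 reads were maternal in Bdf1xCast (86.7%, 95% Clopper-Pearson interval 69.3 to 96.2%) and 21 of 21 in CastxBdf1 (100%, 83.9 to 100%). These intervals cover counting error only, and reads without molecular identifiers are not independent molecules. Expressed as the BDF1 share, which turns over with the cross where the parent decides, Igf2r was at 81.0 ± 33.0% (SD, n = 3) in Bdf1xCast and 0 ± 0% (n = 4) in CastxBdf1. The groups did not overlap, and the exact permutation test gave p = 0.0286, the smallest this design allows and 0.0286 after adjustment over the 2 genes tested. With any 1 of these 7 libraries left out, the smallest p the design allows is no longer under 0.05 (adjusted p = 0.0667 to 0.1).

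Airn was the mirror image. In Bdf1xCast ExE it had 3 to 9 reads per library, with a median of 8, and 0 of 48 were maternal. A count of 0 allows up to 3 reads, a share of 6.25%, and the upper Clopper-Pearson limit is 7.40%. In CastxBdf1 ExE embryo 1 had no read, embryo 2 had 1 maternal of 22, embryo 3 had 0 of 5 and embryo 4 had 0 of 8. The single maternal read left a pooled share of 2.86% (0.0723 to 14.9%). The BDF1 share of Airn was 0 ± 0% (n = 7) in Bdf1xCast and 98.5 ± 2.62% (n = 3) in CastxBdf1, again with no overlap (exact permutation p = 0.00833, the smallest possible, adjusted 0.0167). For the scale of these results, edgeR's parental term called 0.844% of genes with enough reads in ExE and 0.319% in epiblast. Neither gene could enter that fit, whose minimum was 10 reads, met by 3 or more libraries of either cross.

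In wild-type epiblast both genes were almost unread. Igf2r had 7 reads in 3 of 7 Bdf1xCast libraries, 6 of them maternal, and 5 reads in 3 of 4 CastxBdf1 libraries, 3 of them maternal. The 95% interval in Bdf1xCast ran from 42.1 to 99.6%, so the depth cannot tell equal use of both alleles from mainly maternal use. Airn had 6 reads in 2 Bdf1xCast libraries, 4 of them maternal, and 10 in CastxBdf1, 9 of them paternal reads in embryo 2. Slc22a3 had 3 maternal reads of 8 in Bdf1xCast epiblast and 6 of 6 in CastxBdf1 epiblast, and in ExE 4 of 4 and no read. No allelic test was possible for Slc22a3.

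**Figure D2:**
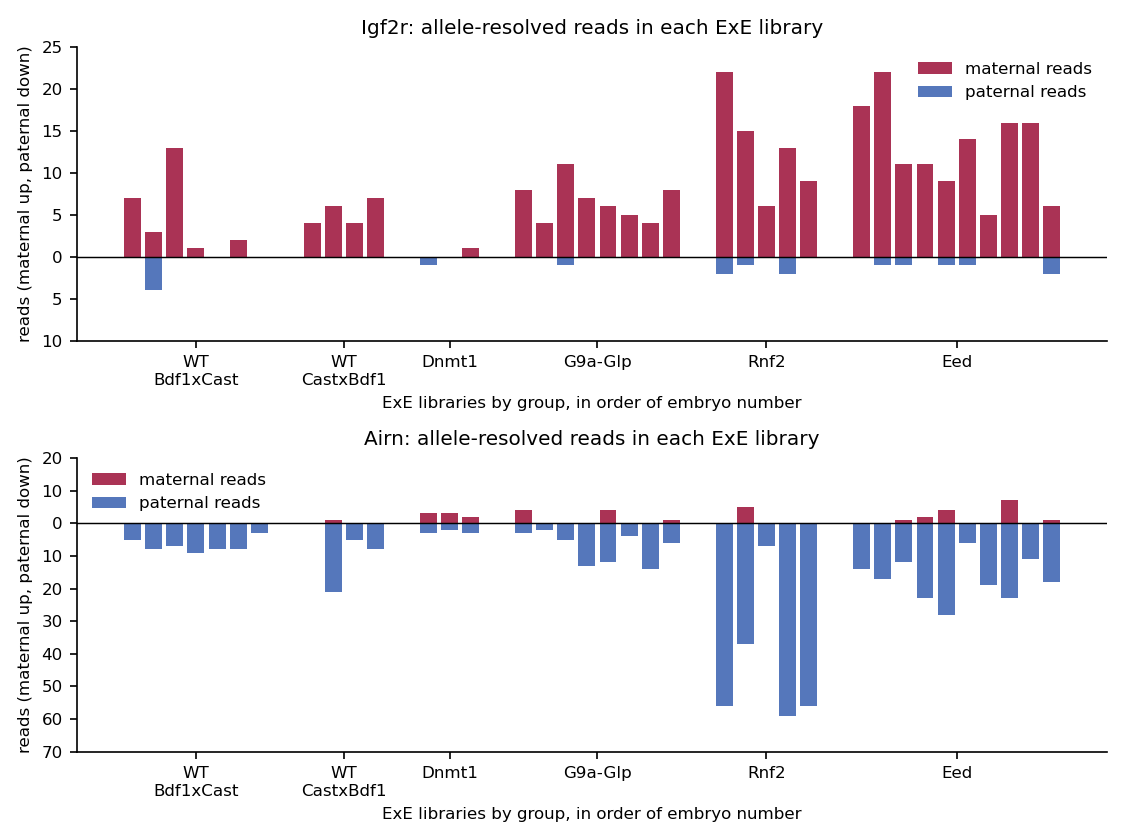
Reads of Igf2r and Airn in each ExE library, by group on the x axis; each bar is 1 library, with maternal reads up and paternal reads down, and the y axis is the raw number of reads, which also scales with library depth. In wild-type ExE the Igf2r bars are mainly maternal and the Airn bars paternal, while Dnmt1 ExE shows maternal Airn reads in all 3 libraries.

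The tissues were then compared within the 11 wild-type embryos, each of which gave both. Airn was higher in ExE: its level was 2.38 ± 1.51 CPM (SD, n = 11) in ExE and 0.543 ± 1.05 CPM in epiblast. It was higher in the ExE of 10 embryos and lower in 0, and the exact sign-flip permutation test gave p = 0.00195, adjusted to 0.00586 over 3 genes. edgeR's quasi-likelihood test was run on the 7 Bdf1xCast embryos alone and did not pair their tissues. With no filter on low counts, needed for so rare a transcript, it put the difference at 2.70 on the log2 scale (SE 0.82, Benjamini-Hochberg adjusted p = 0.00946). That fit called 34.7% of all genes, with a median log2 difference of -0.80 over all genes. Igf2r was at 1.47 ± 1.32 CPM in ExE and 0.513 ± 0.697 CPM in epiblast, higher in ExE in 9 embryos and lower in 1, and did not pass the test (adjusted permutation p = 0.105). In whole-tissue RNA, fewer cells that use a gene and less of its RNA per cell cannot be told apart.

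In the knockouts the comparison asks which regulators affect the domain. The allelic results concern ExE, where the wild type had enough reads. Every Dnmt1 knockout library had maternal Airn reads. Airn rose on the paternal allele in the Rnf2 and Eed knockouts, and Igf2r rose on the maternal allele in the Eed knockout. In G9a-Glp knockout ExE neither gene passed a test. The comparisons of a tissue share their 7 wild-type libraries and are not independent of each other.

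In Dnmt1 knockout ExE, the maternal Airn reads were 3 of 6, 3 of 5 and 2 of 5 in embryos 1, 2 and 3. None of the 7 wild-type libraries had one, so the groups did not overlap. The mean maternal share was 50.0 ± 10% (n = 3) against 0 ± 0% (n = 7), and the pooled 8 of 16 reads gave an interval of 24.7 to 75.3%. The exact permutation p was 0.00833, the smallest possible, and 0.0583 after adjustment over the 7 shares tested, so the share did not pass. With the other shares as they were, even complete separation could not pass, so the adjusted value cannot decide. Over all genes 1.81% had a higher maternal share with no overlap in this comparison. The maternal Airn level was 1.38 ± 0.465 CPM against 0 in each of the 7 Bdf1xCast wild-type libraries, and this passed (exact permutation test, adjusted p = 0.0333 over 16 allele levels). Without Dnmt1 embryo 1, whose Dnmt1 transcript was not lower, or without either other knockout embryo, it did not pass (adjusted p = 0.111). With 2 libraries left, complete separation could give no smaller value there. The paternal Airn level was 1.33 ± 0.183 CPM against 2.38 ± 0.774 and did not pass (adjusted p = 0.237). Total Airn was accordingly close in the groups, at 2.71 ± 0.489 and 2.38 ± 0.774 CPM, with a log2 difference of -0.05 (edgeR with no filter, adjusted p = 0.970).

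Igf2r in the same 3 Dnmt1 knockout ExE libraries had 1 paternal read in embryo 1, no read in embryo 2 and 1 maternal read in embryo 3. Its level was 0.313 ± 0.274 CPM, the lowest of the 6 ExE groups, against 1.47 ± 1.68 in wild type. The difference did not pass (log2 -2.21, edgeR with no filter, adjusted p = 0.301), and 2 wild-type libraries also had no read. In Dnmt1 knockout epiblast, Igf2r had 0 of 4, 1 of 4 and 2 of 3 maternal reads, a pooled share of 27.3% (6.02 to 61.0%), at 1.88, 3.50 and 2.01 CPM. Wild-type epiblast reached 2.29 CPM at most, with a median of 0. The level difference did not pass (exact permutation p = 0.0250, adjusted 0.114 over 24 levels; edgeR with no filter log2 2.08, adjusted p = 0.454).

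In Rnf2 knockout ExE, Airn levels were 5.71, 4.09, 3.79, 7.20 and 8.00 CPM in embryos 2, 4, 5, 6 and 7. The wild-type Bdf1xCast libraries, which share the cross, had 1.07 to 3.35 CPM, with a median of 2.63, so every knockout library was above each of these 7. CastxBdf1 embryo 2, of the other cross, was at 5.91 CPM. Such a rise with no overlap was seen in 8.47% of genes of at least 1 CPM on average. The mean was 5.76 ± 1.86 CPM (n = 5) against 2.38 ± 0.774 (n = 7), a log2 increase of 1.24 (SE 0.31, edgeR after its filter on low counts, adjusted p = 0.0103). That fit called 22.2% of genes. The exact permutation test also passed (adjusted p = 0.0152). The rise lay on the paternal allele, at 5.66 ± 1.97 CPM against 2.38 ± 0.774 (exact permutation adjusted p = 0.0101). After leaving out the 3 libraries named above, the adjusted p of this test was 0.111. With 2 libraries left, complete separation could give no smaller value. The maternal allele had reads in 1 of 5 libraries, 5 of 42 in embryo 4 (exact permutation adjusted p = 0.606). Without the 3 libraries whose Rnf2 transcript was not below wild type, the log2 difference was 1.28 and no longer passed with 2 libraries left (adjusted p = 0.122). Igf2r did not change detectably in this tissue: it stood at 2.45, 1.56, 3.25, 1.83 and 1.29 CPM in the same embryos (log2 0.36, edgeR with no filter, adjusted p = 0.724). Its maternal share was 94.4 ± 5.71% (n = 5).

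In Eed knockout ExE, Airn ran from 2.34 to 10.5 CPM over 10 libraries, with a median of 5.66. Only embryo 6, the lowest, was within the range of the Bdf1xCast wild type; embryo 9 came next at 4.32 CPM. The mean of 6.20 ± 2.34 CPM was 1.22 higher on the log2 scale than the wild type's (SE 0.31, edgeR after the filter, adjusted p = 0.00346; exact permutation adjusted p = 0.0152). Here 40.8% of all genes were called. The increase was paternal, at 5.76 ± 2.0 CPM (adjusted p = 0.0101). Maternal Airn reads occurred in 5 of 10 libraries, 7 of 30 in embryo 8 being the most, and the maternal level of 0.437 ± 0.627 CPM did not pass (adjusted p = 0.237). Pooled, 15 of 186 Airn reads were maternal (8.06%, 4.58 to 13%).

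Igf2r in Eed knockout ExE ran from 1.56 to 10.9 CPM, with a median of 4.22, against 0 to 4.47 with a median of 0.658 in wild type. The log2 increase was 1.5 (SE 0.53, edgeR after the filter, adjusted p = 0.0290). The exact permutation test of the levels gave p = 0.00740, adjusted to 0.0592 over 24 levels, and so did not pass. Without Eed embryo 2, the highest library, edgeR's adjusted p was 0.0553, and without wild-type embryo 4, 6 or 7 it was 0.0586, 0.0508 or 0.0569. The maternal allele carried the difference, at 4.65 ± 2.65 CPM against 1.27 ± 1.62 (adjusted p = 0.0333, and 0.0554 to 0.0694 without wild-type embryo 2, 4, 6, 7 or 8), while the paternal allele stood at 0.213 ± 0.233 against 0.205 ± 0.542 CPM (adjusted p = 1.0). Both members of an antisense pair were thus higher in the same tissue, each from its usual allele.

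Markers of other cell types moved in these libraries too, and their part in the rise of Airn and Igf2r was not tested. In Eed knockout ExE the 8 ExE markers summed to 353 to 689 CPM, against 617 to 1161 in wild type, and none was at 0. The ectoplacental list, with 5 of its 7 genes in the table, summed to 514 to 1771 against 356 to 837, with Prl3d1 and Gcm1 at 0. In Rnf2 knockout ExE the ectoplacental sum was 417 to 717 CPM with Prl3d1 at 0. The 5 markers of decidua, a tissue of the foster mother, summed to 3.64 to 37.5 CPM in Eed knockout ExE, with a median of 10.8 and Dcn at 0, against 3.22 to 10.5 with a median of 6.53 in wild type, where Prl8a2, Dcn and Adamts5 were at 0. The 9 visceral endoderm markers summed to 219 to 526 CPM in wild-type Bdf1xCast ExE, 517 to 886 in Rnf2 and 336 to 1476 in Eed knockout ExE.

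In G9a-Glp knockout ExE, Airn ran from 1.09 to 5.97 CPM with a median of 2.26, and the range overlapped that of the wild type, 1.07 to 3.35 CPM (log2 0.36, edgeR with no filter, adjusted p = 0.63). Maternal reads occurred in 3 of 8 libraries: 4 of 7 in embryo 1, 4 of 16 in embryo 7 and 1 of 7 in embryo 10. The other 5 libraries had none. The mean maternal share of 13.8 ± 21.5% (n = 7) did not differ from wild type beyond its spread (exact permutation adjusted p = 0.382). The ectoplacental markers summed to 1028 to 2708 CPM in this group. Igf2r had 53 maternal of 54 reads, at 1.21 to 4.64 CPM with a median of 2.28 (log2 0.73, edgeR with no filter, adjusted p = 0.418). Its maternal share, 99.0 ± 2.95% (n = 8), was set against 81.0 ± 33.0% in the 3 wild-type libraries with at least 3 reads (adjusted p = 0.382). Without wild-type embryo 2 the sign of this difference turned, to -1.04 percentage points in G9a-Glp, -5.58 in Rnf2 and -5.43 in Eed knockout ExE, and none passed.

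**Figure D3:**
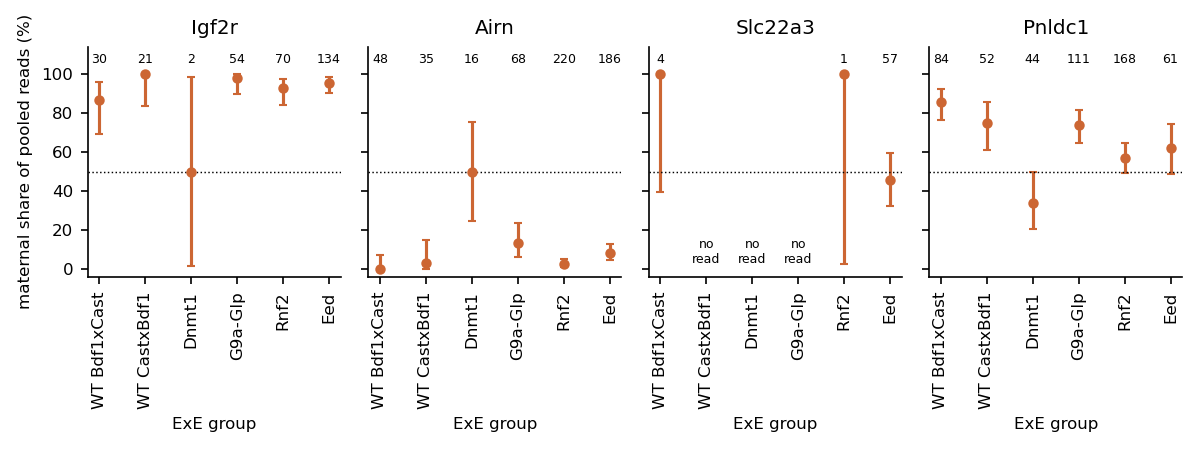
Maternal share of the pooled reads in percent (y axis) of Igf2r, Airn, Slc22a3 and the neighbour Pnldc1 in the 6 ExE groups (x axis); error lines are 95% Clopper-Pearson intervals and the number above each is the reads pooled. Airn stands at 0 in wild-type Bdf1xCast and at 50.0 in Dnmt1 knockout ExE, and Pnldc1 at 85.7 and 34.1.

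In epiblast wild-type reads were too few for the allelic tests made in ExE. Knockout shares are given here as values, and only the order of groups below tested them. Igf2r in Rnf2 knockout epiblast had 73 maternal of 93 reads (78.5%, 68.8 to 86.3%), and embryos differed: 18 of 18 in embryo 1 and 11 of 11 in embryo 8, but 1 of 7 in embryo 5. In G9a-Glp knockout epiblast 11 of 24 reads were maternal (45.8%, 25.6 to 67.2%), with 0 of 5 in embryo 4 and 4 of 4 in embryo 3. In Eed knockout epiblast 20 of 30 were maternal (66.7%, 47.2 to 82.7%). Shares in single libraries thus ran from 0 to 100% in G9a-Glp (2 to 7 reads) and Eed (1 to 11 reads). In Rnf2 knockout epiblast they ran from 14.3 to 100%, on 7 to 22 reads. Airn was read enough only in Rnf2 knockout epiblast, where 4 of 59 reads were maternal (6.78%). Igf2r levels were 1.70 ± 0.784 CPM in G9a-Glp, 1.89 ± 1.11 in Rnf2 and 1.29 ± 1.01 in Eed knockout epiblast against 0.528 ± 0.860 in wild type. None of these passed (exact permutation adjusted p = 0.114, 0.114 and 0.334; edgeR with no filter log2 1.74, 2.08 and 1.31, adjusted p = 0.241, 0.173 and 0.336).

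Ordered by mean level, Igf2r in epiblast went from Dnmt1 through Rnf2, G9a-Glp and Eed knockouts to Bdf1xCast and then CastxBdf1 wild type. In ExE the order was Eed, G9a-Glp and Rnf2 knockouts, Bdf1xCast, CastxBdf1, and Dnmt1 knockout last. No neighbouring groups in either order passed (smallest adjusted p = 0.143 over 10 pairs, exact permutation tests). CastxBdf1 ExE, at 1.13 to 1.92 CPM, did not overlap Dnmt1 knockout ExE, at 0.510 CPM at most. Their permutation p of 0.0286 was the smallest that 4 against 3 libraries allow, and it adjusted to 0.143. The test therefore cannot decide this pair. By maternal share in ExE the order was CastxBdf1, G9a-Glp, Eed, Rnf2 and Bdf1xCast, from 100% to 81.0%, and no neighbours differed (adjusted p = 1.0 over 8 pairs in both tissues). The order by share took groups with at least 2 libraries of at least 3 reads, and in epiblast Bdf1xCast wild type had only 2.

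**Figure D4:**
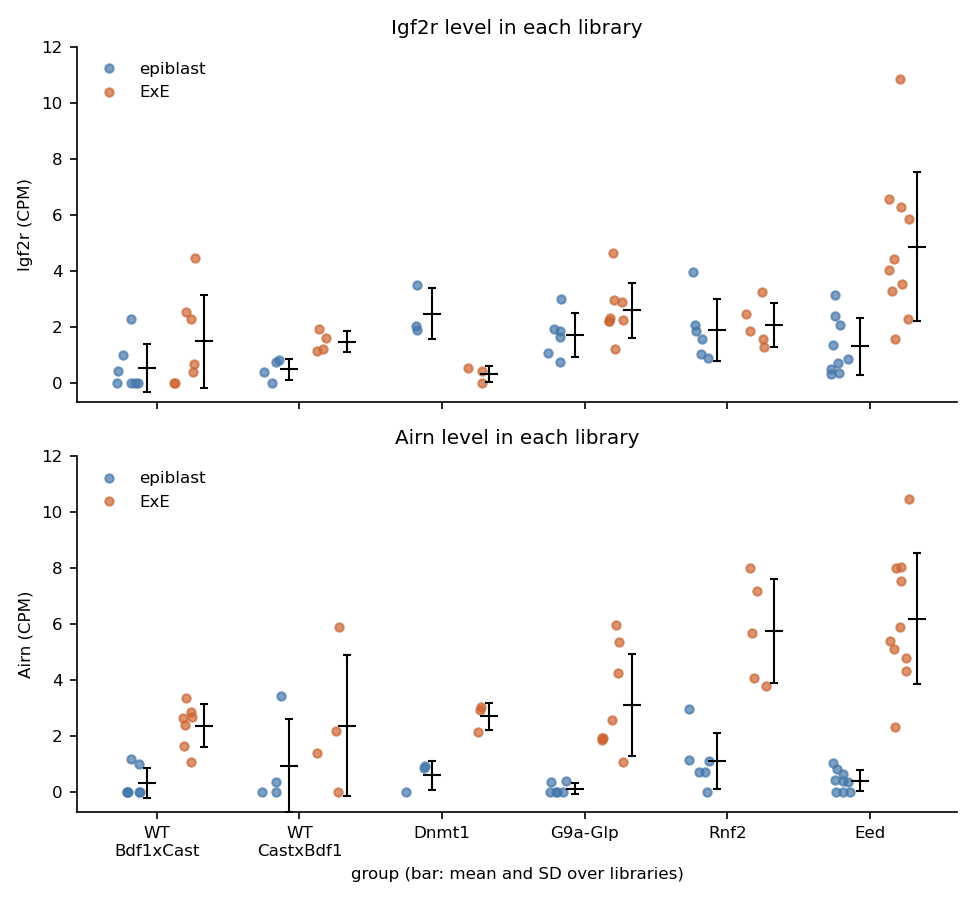
Level of Igf2r and Airn in CPM (y axis) in each library by group and tissue (x axis); points are libraries, short bars are group means and error lines are 1 SD, which the lower edge of the axis cuts off. Airn in Rnf2 knockout ExE lies above every wild-type Bdf1xCast ExE library, the highest of which is at 3.35 CPM.

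Slc22a3 was read in Eed knockout ExE more than in any other ExE group. Embryo 4 had 24 reads (7.73 CPM), embryo 5 had 12, embryo 3 had 8 and embryo 8 had 6, and 8 of 10 libraries had at least 1. In wild-type Bdf1xCast ExE embryo 6 had 1 read, embryo 8 had 3 and the other 5 had none. Dnmt1, G9a-Glp and CastxBdf1 ExE had no Slc22a3 read at all, and Rnf2 ExE had 1. The Eed mean was 1.84 ± 2.45 CPM (n = 10) against 0.201 ± 0.404 (n = 7). edgeR with no filter gave a log2 difference of 2.76 (SE 0.93, adjusted p = 0.0269), but the exact permutation test did not pass (adjusted p = 0.227), and without Eed embryo 4 edgeR gave 0.0891. Of the 57 reads, 26 were maternal (45.6%, 32.4 to 59.3%). In Rnf2 knockout epiblast 23 of 51 reads were maternal (45.1%), 31 of the reads being in embryo 2, and its level of 0.893 ± 1.16 CPM did not differ detectably from the wild type's 0.460 ± 0.643 (exact permutation adjusted p = 0.632).

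The no-filter fits, used wherever a gene of the domain had too few reads for the filter, called 5.40% of genes in Dnmt1, 13.3% in G9a-Glp, 10% in Rnf2 and 16.3% in Eed knockout epiblast. In ExE they called 9.82%, 8.20%, 12.1% and 24.8% in the same order. Their median log2 difference over all genes was between -0.42 and 0.43.

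The genes around the domain were taken next. Of 24 neighbours listed, up to several megabases away, 11 or 12 had enough reads in a knockout comparison, and 17 of 92 tests on total reads were called. In ExE Sod2 also rose by 0.75 in G9a-Glp and 0.74 in Rnf2, while Mrpl18, a mitochondrial ribosomal protein, fell by 0.73 in Dnmt1 and Ezr, a linker of membrane and actin, by 0.68 in Rnf2 knockout ExE. In epiblast the RNA-binding protein gene Qk fell by 0.60 in Rnf2 and 0.56 in Eed, Acat3 and Tcp1 fell by 0.42 each in Eed, and Pnldc1, an exonuclease that trims piRNAs, rose by 0.72 in the G9a-Glp knockout. The filtered fits called 14.1% of all genes in Dnmt1, 34.6% in G9a-Glp, 31.0% in Rnf2 and 35.7% in Eed knockout epiblast, and 18.5%, 15.2%, 22.2% and 40.8% in the ExE of the same knockouts. Eed knockout ExE, with the highest of these shares, had 8 of the 17 calls. There Map3k4, a stress-kinase kinase, rose by 1.02 on the log2 scale, Agpat4, a phospholipid enzyme, by 0.99 and Sod2, the mitochondrial superoxide dismutase, by 0.43. Pnldc1 fell by 1.13, Ezr by 0.61, Mrpl18 by 0.61, and the overlapping Acat3 and Tcp1, which can share reads, by 0.46 each. The fall of Pnldc1 (edgeR adjusted p = 0.0274) passed with DESeq2 (0.0195) and with sex as a term (0.0301). It did not pass with library totals as only scaling (0.0628) or with embryo number as a block (0.0591). In Dnmt1 knockout epiblast none of the 11 was called.

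Allelic change among the neighbours was tested by edgeR's allele-by-genotype term where 3 or more libraries per group reached 10 reads. Of 82 such tests 0 were called, and 9 had an unadjusted p under 0.05. With a minimum of 3 reads in ExE, limma and edgeR also called 0 of 55, with 7 and 5 at an unadjusted p under 0.05. Over all genes these fits called 0.894% in Dnmt1, 1.79% in G9a-Glp, 0.686% in Rnf2 and 1.06% in Eed knockout epiblast, and 0.856%, 1.10%, 0.911% and 2.65% in ExE. Pnldc1, which lies 147 kb beyond the start of Airn on the side away from Igf2r, was 1 of 2 neighbours with a parental bias past the threshold in wild-type ExE. Its maternal share was 84.3 ± 15.1% in Bdf1xCast (72 of 84 reads) and 76.7 ± 18.4% in CastxBdf1 (39 of 52), a parental term of 2.02 on the log2 scale (SE 0.44, edgeR adjusted p = 0.0263). Acat2, an acetyl-CoA acetyltransferase, passed with a small term of 0.40 (adjusted p = 0.0411), at 56.7 ± 6.04% and 56.8 ± 4.61%.

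In wild-type epiblast the pooled maternal share of Pnldc1 was 58.7% in Bdf1xCast and 31.4% in CastxBdf1. The difference between the tissues passed (2.33 on the log2 scale, edgeR adjusted p = 0.0337), in a fit that called 0.317% of genes. In the knockouts the ExE share was lower in value in all 4: 34.1% pooled in Dnmt1, 57.1% in Rnf2, 62.3% in Eed and 73.9% in G9a-Glp. None of the allele-by-genotype differences passed (edgeR with at least 3 reads for Dnmt1, log2 -3.43, adjusted p = 0.101, and with at least 10 reads for Rnf2, log2 -2.16, adjusted p = 0.210). Its total level in Bdf1xCast wild type differed by -0.73 on the log2 scale between ExE and epiblast in a filtered fit that called 56.7% of genes (edgeR adjusted p = 0.0465). With the embryo as a block, as the tissues share embryos, it did not pass (adjusted p = 0.0606).

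The receptor's own pathway was followed through lists of its ligands and receptors, of the mannose 6-phosphate sorting machinery and of lysosomal cargo, the hydrolases and cofactors that the sorting route delivers. Lysosomal cargo genes rose in each of the 4 knockouts in both tissues. Of 13 genes (12 in G9a-Glp epiblast), 3 rose in Dnmt1, 7 in G9a-Glp, 9 in Rnf2 and 8 in Eed knockout epiblast, and 3, 4, 8 and 7 in ExE, with 0 falling in any. Of all genes tested 6.94%, 19.6%, 18.0% and 19.2% rose in epiblast and 8.54%, 8.5%, 12.2% and 22.7% in ExE. The list's median log2 difference was 0.21, 0.67, 0.87 and 0.57 in epiblast and 0.41, 0.38, 0.58 and 0.67 in ExE, while the median over all genes lay between -0.03 and 0.02. Since all comparisons of a tissue share the wild-type libraries, the counts are not independent of each other.

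Psap, the precursor of the saposins that help break down sphingolipids, rose in all 8 comparisons, by 1.60, 2.05, 1.97 and 1.85 on the log2 scale in Dnmt1, G9a-Glp, Rnf2 and Eed knockout epiblast and by 1.83, 1.52, 1.53 and 1.60 in ExE (edgeR, largest adjusted p = 0.0394). Its mean level was 17.5 to 22.0 CPM in the knockout epiblast groups against 4.79 ± 2.48 (n = 7) in wild type, and 72.3 to 101 CPM against 24.3 ± 11.2 in ExE. All knockout epiblast libraries were above the highest wild-type one, at 8.39 CPM, though the lowest, in Eed, was at 8.79. The share of all genes that separate in this way was not computed for epiblast. In ExE the G9a-Glp and Eed ranges overlapped the wild type's. Hexa, a subunit of the hexosaminidase that degrades gangliosides, rose by 1.29 in Dnmt1 and 1.27 in Rnf2 knockout epiblast and by 1.53 in Rnf2 and 1.78 in Eed knockout ExE. The visceral endoderm, a tissue rich in lysosomes that was dissected away, left markers in these libraries at 219 to 526 CPM in wild-type Bdf1xCast ExE, 336 to 897 in Dnmt1, 264 to 482 in G9a-Glp, 517 to 886 in Rnf2 and 336 to 1476 in Eed knockout ExE. In epiblast their median sum was 113 CPM in wild-type Bdf1xCast, with a highest library of 960, and 619 in Dnmt1, 301 in G9a-Glp, 364 in Rnf2 and 325 in Eed knockouts. Its part in the rise of the cargo genes was not tested.

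Of 13 sorting genes tested, 0 to 3 rose and 0 or 1 fell in each comparison, 12 rises and 6 falls over 104 tests. Of all genes tested 6.94% to 22.7% rose and 6.66% to 18.1% fell in these comparisons. Gnptg, a subunit of the phosphotransferase that makes the mannose 6-phosphate tag, rose by 1.38 in G9a-Glp, 1.37 in Rnf2 and 1.24 in Eed knockout epiblast. Gnptab, the catalytic precursor of that enzyme, rose by 1.44 in G9a-Glp knockout epiblast. Nagpa, which uncovers the tag, rose by 1.03 in G9a-Glp and Gga2, an adaptor that sorts the receptors at the Golgi, by 1.55 in Dnmt1 knockout ExE. Vps29, a retromer subunit that returns receptors to the Golgi, fell in 6 of 8 comparisons: by 1.18, 0.54 and 0.61 in Dnmt1, G9a-Glp and Eed knockout epiblast and by 1.20, 0.46 and 0.55 in Dnmt1, Rnf2 and Eed knockout ExE.

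Among the ligands, receptors and binding proteins, 8 to 10 were tested and 0 to 2 rose and 0 to 3 fell, 6 rises and 12 falls over 70 tests, against the same shares of all genes. Igf2bp3, an RNA-binding protein named for binding Igf2 mRNA, fell in 6 of 8 comparisons, all but G9a-Glp and Dnmt1 knockout ExE, by 0.53 to 0.90 on the log2 scale. Igf1r, the signalling receptor for IGF1 and IGF2, fell by 0.88 and 0.60 in Rnf2 and Eed knockout epiblast and by 1.24 in Rnf2 knockout ExE. Irs1, an adaptor of the IGF1 receptor, fell by 0.91 and 1.00 in G9a-Glp and Rnf2 knockout epiblast. In Eed knockout ExE, Igf2, the ligand that the receptor clears, rose by 0.93 and Igfbp2, a secreted IGF-binding protein, by 2.05. Igfbp2 also rose in Rnf2 knockout ExE, by 1.52. Igfbp3 rose by 1.08 in Eed knockout epiblast. Between the tissues of Bdf1xCast wild type Igf2 was higher in ExE, by 5.08 on the log2 scale, while Igfbp2 fell by 4.60 and Irs1 fell by 3.77 from epiblast to ExE.

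**Figure D5:**
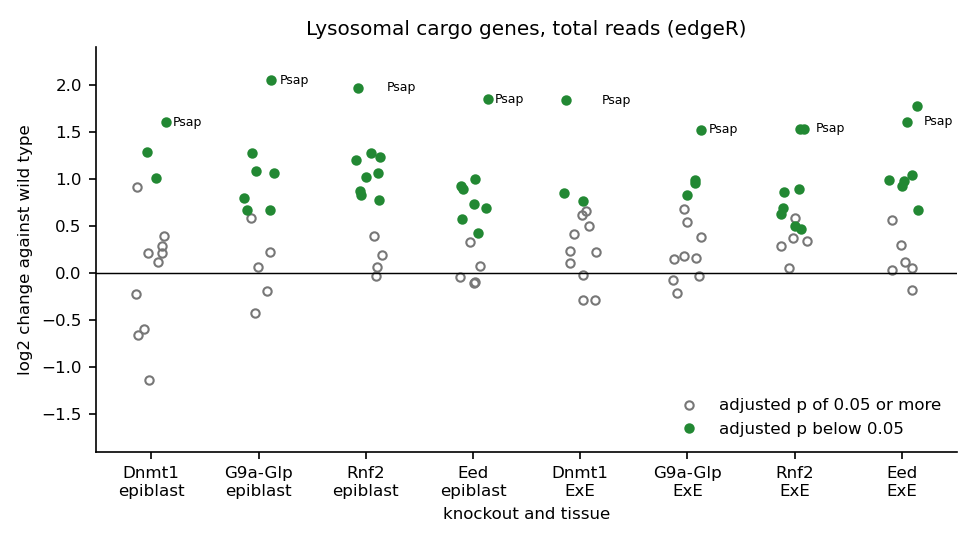
Log2 difference from wild type (y axis) of the lysosomal cargo genes in the 8 knockout comparisons (x axis); points are genes, filled where edgeR's adjusted p was under 0.05 and open otherwise. Filled points lie only above 0, and Psap is filled in all 8.

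For a description of what resembles Igf2r, its group means were ranked against those of 7704 genes over the 12 groups. The most similar levels were those of Ankrd2 (Spearman's rho 0.93), Psma4 (0.85), Syce1 (0.83), Smdt1 (0.81) and Inpp5k (0.80). The most similar maternal shares, by root-mean-square difference over the 12 groups among 6332 genes, were those of Tssc4 (18.4 percentage points), Cd81 (18.5), R74862 (19.6), which overlaps Cd81 and can share its reads, H19 (21.9) and Tgif2 (24.2). These are values over means that share depth and wild-type groups, and in the groups with few reads the Igf2r share is itself uncertain.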

How the data were processed

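RNA of single E6.5 tissues was amplified with a kit that does not mark strand, per the labels' protocols. STAR 2.5.0, HTSeq and mm10 are named in the submitters' processing notes, with no role or order given there. The authors deposited 1 table with 3 values per gene and library: the count of reads over BDF1/CAST polymorphisms, a ratio (CAST share minus 0.5) and a score (signed -log10 binomial p, set to 0 under 10 reads and limited in each library). The depth of each library is the sum of those counts. Maternal and paternal reads were recovered from ratio and score: 712027 of 712054 scored values matched a whole number of reads within 0.0011 of the score, and all 387639 values under 10 reads, which have no score, matched one within 0.0051 of the ratio.

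Levels are CPM. Total reads were tested with edgeR 4.0.16 (quasi-likelihood, TMM, Benjamini-Hochberg) over all genes, after filterByExpr where a gene passed it and otherwise with no filter. The alternative was DESeq2 1.42.0 for total reads and limma 3.58.1 for allelic change in ExE. The allelic edgeR model required 10 reads in 3 libraries of each group. No gene of the domain met this in wild type, so shares in libraries with at least 3 reads, allele levels and CPM were compared by two-sided exact permutation tests, chosen after the depth was seen. Both edgeR models were tested on simulated data. Embryo numbers link the tissues of an embryo in wild type, the only genotype whose tissues were paired in a test. For some Eed embryos the titles number the tissues differently. Between genotypes embryo numbers link nothing. Groups follow the labels, where each library is a separate embryo. Named pathway genes are the 3 with the largest change per comparison among those called, except 1 that is not reported here. Igf2, Igf2bp3, Igf1r, Irs1 in the knockouts and further values of Vps29 were added after their values were seen, as were neighbours called in total reads. Neighbours called in allelic fits and the 5 genes most like Igf2r are named by rule. The genes and lists were chosen with earlier results of these data known. The bisulfite sample was not analysed here.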

Additional observations from a re-analysis of the deposited data

Results flagged for a closer look

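Single embryos stood apart in 10 of 40 sets of values examined by the gap to the nearest other library. Each set held the CPM or maternal share of 1 gene in 4 to 10 libraries of a group, so sets share libraries. Chance gives about 1 in 20 for continuous values. Many of these sets have ties at 0 or 100%, where 1 read can set a library apart, so that rate does not hold for them. Most rest on few reads, and no explanation was tested. The maternal share of Igf2r was 14.3% in Rnf2 epiblast embryo 5 (1 of 7 reads), with 72.7% the nearest. It was 91.7% in G9a-Glp ExE embryo 3, where all others were at 100%, and 75.0% in Eed ExE embryo 10, with 90% the nearest. The maternal share of Airn was 11.9% in Rnf2 ExE embryo 4 (5 of 42 reads) and 0 in the other Rnf2 ExE embryos. Airn was at 3.43 CPM in CastxBdf1 epiblast embryo 2, and the next library was at 0.362. Slc22a3 was high in 1 embryo of each of 5 groups. It was at 3.18 CPM in Rnf2 epiblast embryo 2 (next 0.901), 0.842 in Eed epiblast embryo 5 (next 0.399) and 1.07 in wild-type Bdf1xCast ExE embryo 8 (next 0.334). In Rnf2 ExE embryo 5 it was at 0.541 CPM, from 1 read, with 0 in the others, and in Eed ExE embryo 4 at 7.73 CPM (next 3.93).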

How the results depend on the processing

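Values here are adjusted p unless called counts. Of 31 results, 11 passed their threshold. This is no pass rate: of the 16 allele levels tested only those that had passed were entered. The counts of calls in gene lists, also among the 31, have no threshold. Shares: the maternal share of Airn in Dnmt1 knockout ExE passed with limma (0.00163). It passed in no edgeR fit with at least 3 reads, whether plain, with sex, with the replicate block or over all groups. Its exact test ran from 0.0833 to 0.194 as single libraries were left out, each the smallest value those library numbers allowed. Airn in Rnf2 knockout ExE turned direction with limma (0.604). The parental bias of Igf2r did not pass with at least 5 reads (0.2) or with edgeR (0.0807), and ran from 0.0667 to 0.1 without single libraries. The Igf2r share differences ran from 0.323 to 1.0 in G9a-Glp, 0.333 to 0.8 in Rnf2 and 0.337 to 0.554 in Eed knockout ExE, and each turned without wild-type embryo 2 (1.0, 0.417 and 0.554). Allele levels: maternal Airn in Dnmt1 and paternal Airn in Rnf2 knockout ExE did not pass without the libraries whose targeted transcript was not lower. Each gave 0.111, the smallest value that the 2 libraries left allowed. Without single libraries they ran from 0.0476 to 0.111 and from 0.0173 to 0.0242, paternal Airn in Eed from 0.0028 to 0.021 and maternal Igf2r in Eed from 0.0167 to 0.0694.

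Levels: the near-zero Airn difference in Dnmt1 knockout ExE turned with the library total as only scaling (0.871), with the replicate block (1.0), with the exact test (0.66) and without Dnmt1 embryo 3 (0.95, range 0.917 to 0.95). Igf2r in Rnf2 knockout ExE turned without the 3 libraries whose Rnf2 transcript was not lower (0.970). Airn in Rnf2 knockout ExE did not pass with the replicate block (0.178) or without those 3 (0.122), and passed without any single library (0.00847 to 0.0344). Airn in Eed knockout ExE passed in every such run (0.00136 to 0.00927). Igf2r in Eed knockout ExE did not pass the exact test (0.0592) and ran from 0.00588 to 0.0586. Slc22a3 there ran from 0.00557 to 0.0891 and gave 0.0933 with the replicate block. The neighbours gave 17 calls, 27 with DESeq2 and 10 with the block. The block took pathway calls from 85 of 277 tests to 65. A list of 15 chromatin factors tied to Airn, which includes the targeted genes themselves, gave 28 calls in 101 tests, and 23 with the block. In each comparison 0 to 2 of these factors rose and 1 to 4 fell. Over all genes the filtered fits called 14.1% to 40.8%. Embryo numbers are only a shared number across genotypes: the correlations of same-numbered libraries ran from -0.411 to 0.396, and not every pair exceeded 0.1 in any comparison. The cause of these changes was not tested, apart from fewer libraries where some were left out. The 50-read minimum, the knockout-by-tissue allelic difference and the tissue difference in share were not run, as too few reads remained. In wild-type epiblast the shares of Igf2r and Airn rest on 5 to 10 reads per gene and cross, and Slc22a3 has 4 and 0 reads in the crosses of wild-type ExE.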
